A study of Mus musculus with 4 samples.

Results

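Heat shock proteins are molecular chaperones, and 10 of their genes were followed here: the small heat shock protein genes Cryab and Hspb1, the inducible HSP70 pair Hspa1a and Hspa1b, the constitutive HSP70 gene Hspa8, the HSP110 gene Hsph1, the HSP40 cochaperone gene Dnajb1, the HSP90 gene Hsp90aa1 and the mitochondrial chaperonin pair Hspd1 and Hspe1. They were chosen by name from the 32285 genes counted in each section, with earlier results of these data known. All 10 had enough counts to be tested in every comparison below. Kidney sections of male WT C57BL/6J mice aged 7 to 8 weeks were compared, 2 from normal control left kidneys and 2 from left kidneys after ischemia-reperfusion. In that model both renal pedicles are clamped for 30 min, and the kidneys were taken 24 h later. The gene levels were read by Visium, in which RNA from a 10 µm frozen section binds to an array of barcoded spots, each covering several cells, and each captured molecule is counted once by its unique molecular identifier (UMI).

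Heat shock proteins hold unfolded proteins in solution, refold them or pass them on for degradation. When unfolded proteins accumulate, heat shock factor 1 binds repeats of the heat shock element in promoters and raises transcription of HSP70, HSP40, HSP90 and small heat shock protein genes. The small heat shock proteins work without ATP and also bind actin and intermediate filaments, and in the normal kidney αB-crystallin, the product of Cryab, is known for its high level in the salt-rich inner medulla.

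Depth was 44528078 UMIs for normal section 1 and 27657481 for normal section 2, and 31053530 and 25957128 for the corresponding ischemic sections, over 2401 to 2682 tissue spots each. The labels do not tie sections to mice, and the study's methods describe technical replicates, so the p-values measure the spread between sections, which may be technical. By the slide serial number in their labels, all 4 sections were on the same slide. They shared 1490 spot barcodes, since the arrays carry the same barcode set. Each spot was assigned to cortex, outer stripe, inner stripe, inner medulla or pelvis from marker genes, with no heat shock protein gene among them. The labelled injury was checked with Havcr1, which encodes the tubular injury molecule KIM-1 and was at 0.966 and 2.13 CPM in normal sections 1 and 2 and 1408 and 1413 CPM in ischemic sections 1 and 2. Lcn2, which encodes NGAL, was at 4.92 and 7.95 CPM in the normal sections and 3056 and 3626 CPM in the ischemic sections. Both separated the conditions without overlap. Levels are given as CPM, the counts of a gene per 1000000 UMIs of the section or zone. Fold changes come from edgeR with TMM scaling, which also corrects for the few abundant genes that dominate a library: its factors were 0.832 and 1.01 for the normal and 1.09 and 1.09 for the ischemic sections. With library size alone, the median log2 fold change of all genes in whole sections was 0.31 instead of 0.04, and 0.42 instead of 0.05 in the outer stripe, so a gene whose CPM rose by less than about this shift is not higher than the typical gene.

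The zones did not hold equal tissue in both conditions. The marker genes themselves were lower after ischemia, with Slc7a13, the transporter that marks the outer stripe, at 804 and 832 CPM in the normal sections and 26.4 and 28.8 CPM in the ischemic sections of that zone. In the inner medulla, Akr1b3, the aldose reductase of the papilla, was at 1926 and 1303 CPM in the normal sections and 139 and 193 CPM in the ischemic sections, and the urothelial list summed to 893 and 2195 CPM in the normal and 4.72 and 59.3 CPM in the ischemic sections. Aqp2, the collecting duct water channel, was at 2625 and 2815 CPM in the normal sections and 540.2 and 1159.5 CPM in the ischemic sections, while the urea transporter gene Slc14a2 ran the other way, at 114 and 385 CPM in the normal sections and 864 and 688 CPM in the ischemic sections. The spots called inner medulla and pelvis in the ischemic sections thus had less Akr1b3, Aqp2 and urothelial RNA than those of the normal sections, and values for these zones are given with that limit. Of the spots called pelvis, only 28.3% and 28.5% in the ischemic sections kept the name when zones were drawn without neighbouring spots. Of those called outer stripe, 72.2% and 74.3% in the normal and 62.9% and 63.2% in the ischemic sections kept it.

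Promoter sequence is shown for 5 genes that carry a heat shock element before the start, because they took different courses after ischemia: Hspa1b and Hspb1 rose, Hspa1a rose in the outer stripe, Hspe1 fell and Hsph1 did not pass the test in whole sections. RefSeq promoters (GRCm38.p6, 250 bases before to 50 after the transcription start) were at hand for 7 of the 10 genes, in 10 entries. The element was searched on both strands as 2 inverted units, GAANNTTC or TTCNNGAA, and as 3 units, GAANNTTCNNGAA or TTCNNGAANNTTC. The longer form contains the shorter. The 2-unit form was present in 6 of the 7 genes and in 15.1% of all 32851 promoters, and the 3-unit form in 3 of the 7 and in 0.603% of all promoters. Dnajb1 had no match in its windows. The last 120 bases before the start are printed 5′ to 3′ on the strand of the gene, with the units of the element in capitals.
Hspa1a, chr17:34972157-34972276, minus strand: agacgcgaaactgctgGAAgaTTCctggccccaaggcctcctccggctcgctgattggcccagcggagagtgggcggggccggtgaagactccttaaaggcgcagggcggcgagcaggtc
Hspa1b, chr17:34959239-34959358, minus strand: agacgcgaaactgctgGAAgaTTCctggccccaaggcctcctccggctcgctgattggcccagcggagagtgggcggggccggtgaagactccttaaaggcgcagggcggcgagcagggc
Hspb1, chr5:135887799-135887918, plus strand: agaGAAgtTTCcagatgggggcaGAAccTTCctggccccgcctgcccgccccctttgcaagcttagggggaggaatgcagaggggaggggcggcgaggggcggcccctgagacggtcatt
Hsph1, chr5:149636337-149636456, minus strand: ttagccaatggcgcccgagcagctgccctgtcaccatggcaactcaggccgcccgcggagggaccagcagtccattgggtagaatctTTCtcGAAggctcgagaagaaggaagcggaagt
Hspe1, chr1:55088028-55088147, plus strand: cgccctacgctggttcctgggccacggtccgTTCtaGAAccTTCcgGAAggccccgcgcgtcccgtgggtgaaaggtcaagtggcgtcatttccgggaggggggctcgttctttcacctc
Hspa1a and Hspa1b lie 12918 bases apart on chromosome 17, and the 250 bases before their starts differed at 3 positions, 1 of them in the stretch shown. Each holds 1 element of 2 units, at the same place, 104 bases before the start. Hspb1 holds 2 such elements, 117 and 97 bases before its start. In Hspe1, overlapping elements make a run of 4 alternating units, at chr1:55088059-55088076. Hspd1, which is transcribed in the opposite direction, has 2 promoter entries. The same bases lie before the start of 1 of them and outside the window of the other, whose start is the one of the gene annotation, so that they lie inside the annotated Hspd1 gene. In the stretch shown for Hsph1 there is 1 element of 2 units, 33 bases before the start. Outside that stretch, 36 bases after the start, Hsph1 also holds 1 element of 3 units, at chr5:149636288-149636300. Hspa8, Hsp90aa1 and Cryab had no entry. A match is a description of the letters and not a shown binding site.

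In whole sections 4 of the 10 genes rose after ischemia (Hspb1, Cryab, Hspa1b and Hsp90aa1), Hspe1 fell and 5 were not called. The rises were most numerous in the outer stripe, and falls were most numerous in the inner medulla. Of the 15305 genes tested in whole sections, 31.0% higher and 29.7% lower were called, or 37.6% higher and 18.5% lower with library size alone, where 5 of the 10 genes were higher and none lower. In the cortex 4 were higher and 1 lower, against 25.5% higher and 24.2% lower of all genes (33.4% higher and 15.8% lower with library size alone). In the outer stripe 7 were higher and 1 lower, against 34.6% higher and 32.9% lower (48.0% higher and 20.6% lower with library size alone). In the inner stripe 2 were higher and 1 lower, against 20.1% higher and 22.6% lower (22.3% higher and 13.1% lower with library size alone). In the inner medulla none was higher and 5 were lower, against 11.2% higher and 17.2% lower (13.1% higher and 13.3% lower with library size alone), and in the pelvis 1 was higher and 3 were lower, against 10.7% higher and 14.6% lower. Set against these backgrounds, the share of higher genes was furthest above its background in the outer stripe. The share of lower genes was furthest above its own in the inner medulla. Since the 10 genes were chosen with earlier results of these data known, these shares are descriptions and not a test of an excess. The median log2 fold change of the 10 genes was -0.04 in whole sections and 0.63 in the outer stripe, against 0.04 and 0.05 for all genes tested.

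**Figure D1:**
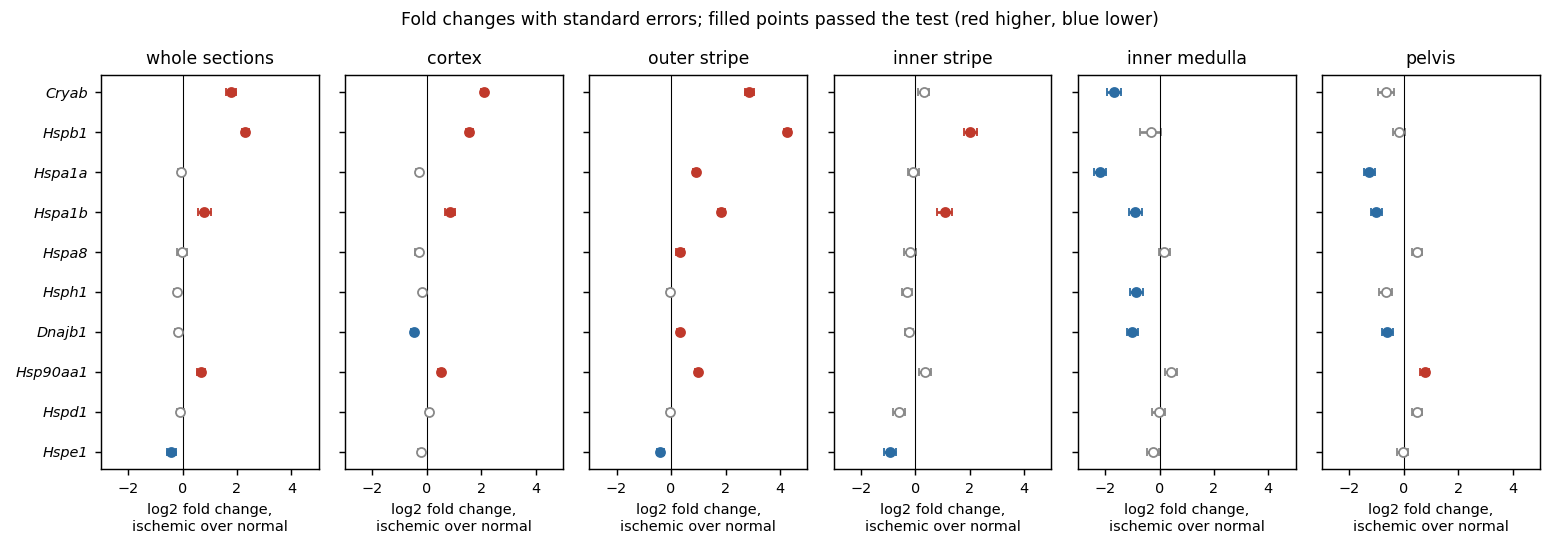
Log2 fold change of each gene, ischemic over normal, with its standard error, in whole sections and in each zone. Filled points passed edgeR's test at an adjusted p of 0.05, red for higher and blue for lower. Red points are most numerous in the outer stripe, with 7 of 10 genes, and none is present in the inner medulla, where 5 genes are blue.

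Cryab (chr9:50751325-50756636, plus strand) rose after ischemia, and the zone in which it was highest changed. In whole sections it stood at 589.8 and 641 CPM in normal sections 1 and 2 and 2563 and 2536 CPM in ischemic sections 1 and 2, and both ischemic sections were above both normal sections. It rose 3.43-fold (log2 fold change 1.78 ± 0.17 (SE), edgeR adjusted p = 2.24e-05). In the normal kidney Cryab was highest in inner medulla or pelvis, where the sections differed in order, and lowest in cortex. Its level in the normal cortex was 81.4 and 81.5 CPM, in the outer stripe 635 and 596 CPM, in the inner stripe 839.8 and 921 CPM, and in the inner medulla 3751 and 3485 CPM. The order of cortex, outer stripe, inner stripe and inner medulla was the same in both normal sections, with no overlap between neighbouring zones.

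After ischemia the peak of Cryab lay in the outer stripe, the zone of the straight proximal tubules. There it reached 5879 and 5866 CPM, a 7.35-fold rise (log2 fold change 2.88 ± 0.16 (SE), edgeR adjusted p = 3.98e-12). The cortex rose too, to 398 and 409 CPM (log2 fold change 2.10 ± 0.11 (SE), edgeR adjusted p = 1.67e-09). In the inner stripe the level was 1415 and 1304 CPM, above both normal sections, but the test was not passed (log2 fold change 0.31 ± 0.20 (SE), edgeR adjusted p = 0.252). The outer stripe, with 33.7% and 34.0% of all UMIs of the ischemic sections, held 77.3% and 78.7% of their Cryab counts, compared with 37.6% and 33.4% in the normal sections.

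**Figure D2:**
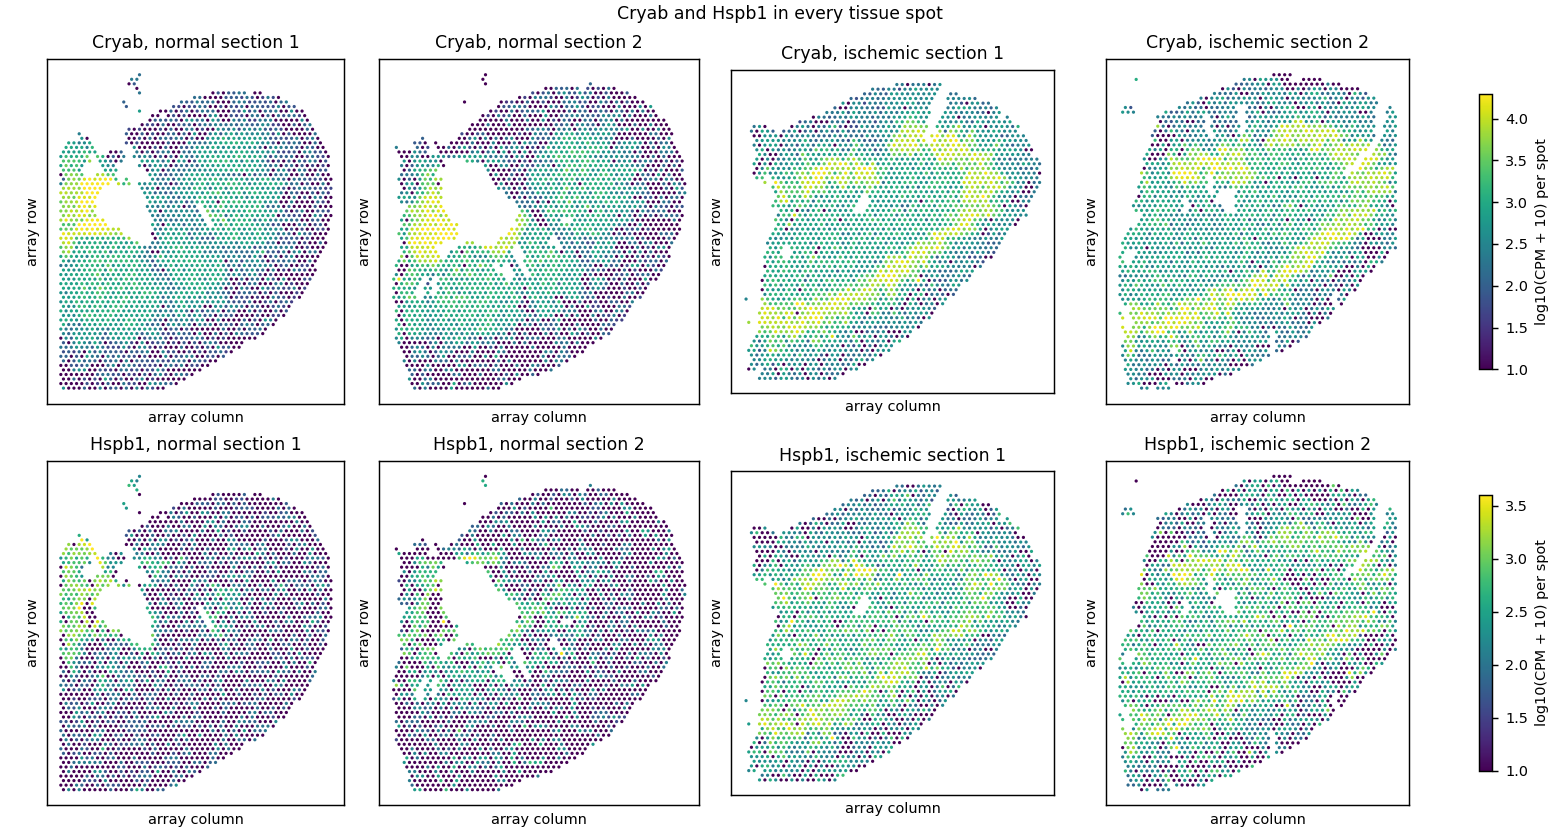
Level of Cryab (top row) and Hspb1 (bottom row) in every tissue spot of the 4 sections, as log10(CPM + 10) by array column and row. In the normal sections the brightest spots lie at the papilla, while in the ischemic sections a bright band follows the outer stripe, where Cryab reached 5879 and 5866 CPM and Hspb1 1023 and 970.2 CPM.

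The band was not uniform. In outer stripe spots with at least 2000 UMIs, the 10th percentile, median and 90th percentile of Cryab were 679, 4799.9 and 12449 CPM in ischemic section 1 and 624, 4668 and 12717 CPM in ischemic section 2. The normal medians were 565 and 543 CPM, below the 10th percentile of both ischemic sections. In cortex, spots at the tissue edge had less Cryab than spots at least 3 steps inside it, with ratios of 0.580, 0.855, 0.540 and 0.666 in normal sections 1 and 2 and ischemic sections 1 and 2.

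Hspb1 (chr5:135887919-135889563, plus strand), which encodes the small heat shock protein HSP25, had the largest fold change of the 10 genes in whole sections and in the outer stripe. It was at 79.0 and 107 CPM in normal sections 1 and 2 and 559 and 538 CPM in ischemic sections 1 and 2, with both ischemic sections above both normal sections (log2 fold change 2.30 ± 0.14 (SE), edgeR adjusted p = 1.37e-06). In the outer stripe it went from 33.1 and 47.9 CPM, the lowest of the 5 zones in both normal sections, to 1023 and 970.2 CPM, the highest of the 5 zones after ischemia. This was a 19.3-fold rise (log2 fold change 4.27 ± 0.14 (SE), edgeR adjusted p = 6.47e-16). In the cortex Hspb1 rose from 40.5 and 62.4 to 175 and 169 CPM (log2 fold change 1.56 ± 0.13 (SE), edgeR adjusted p = 2.28e-07), and in the inner stripe from 67.0 and 142 to 529.5 and 478 CPM (log2 fold change 2.02 ± 0.25 (SE), edgeR adjusted p = 0.000252). The rises in whole sections, cortex and outer stripe of Hspb1 and Cryab passed the test under every alternative run.

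**Figure D3:**
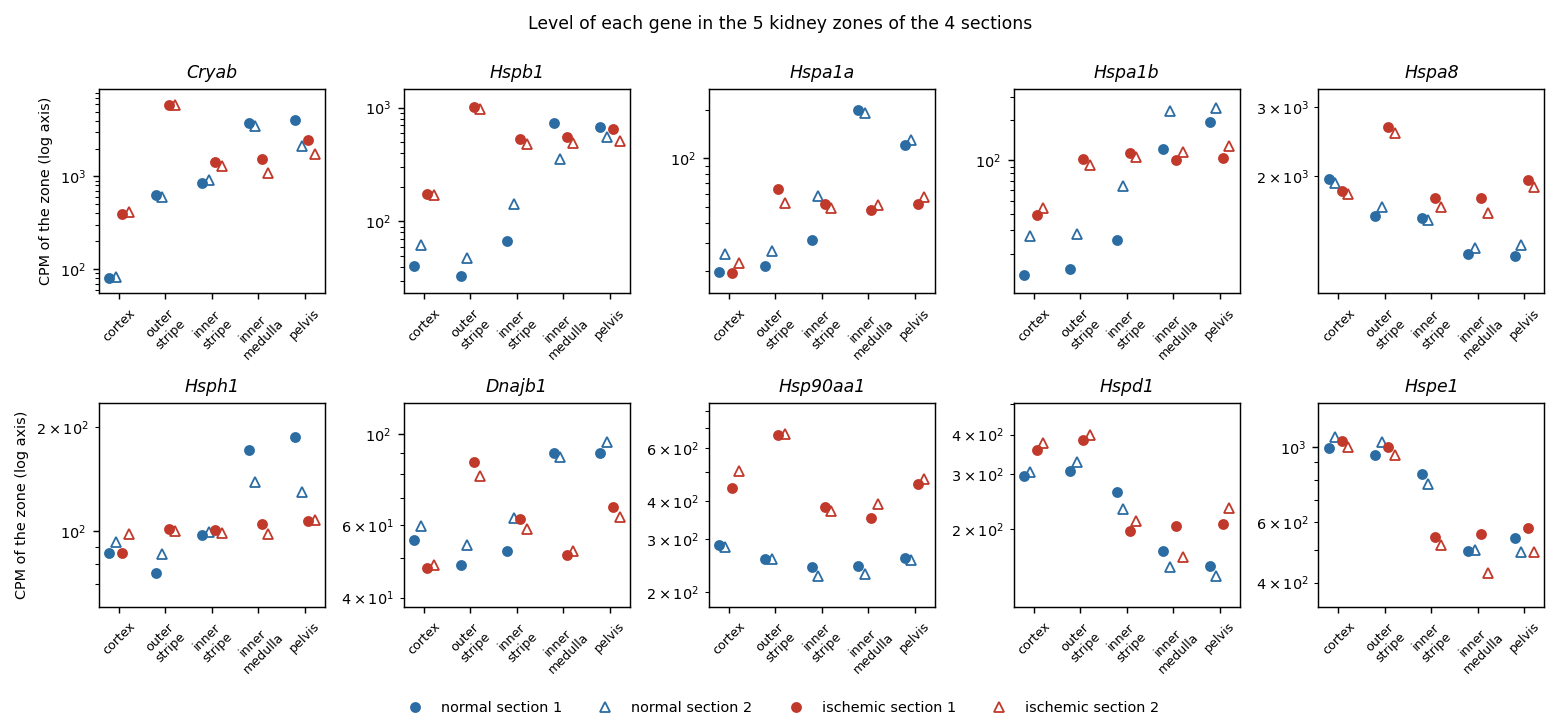
CPM of each of the 10 genes (log axis, 1 panel per gene) in the 5 zones, with 1 point per section. The ischemic points of Cryab and Hspb1 are highest in the outer stripe, the normal points of Cryab, Hspb1, Hspa1a and Hspa1b are highest in inner medulla or pelvis, and Hspd1 and Hspe1 are highest in cortex or outer stripe in all 4 sections.

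The inducible HSP70 genes Hspa1a (chr17:34969190-34972156, minus strand) and Hspa1b (chr17:34956436-34959238, minus strand) encode nearly the same protein, and in whole sections only Hspa1b passed the test. The difference between them was not tested. Hspa1b was at 24.3 and 54.5 CPM in normal sections 1 and 2 and 78.0 and 81.4 CPM in ischemic sections 1 and 2. The normal sections differed from each other more than the ischemic ones did, and both lay below them (log2 fold change 0.80 ± 0.23 (SE), edgeR adjusted p = 0.0141). Hspa1a was at 29.8 and 43.7 CPM in the normal sections and 42.7 and 41.6 CPM in the ischemic sections, with overlap between the conditions, and did not pass the test (log2 fold change -0.05 ± 0.11 (SE), edgeR adjusted p = 0.709). Without the spots of inner medulla and pelvis, an alternative added after the data were seen, Hspa1a came out higher in the ischemic sections, with a log2 fold change of 0.38 and an edgeR adjusted p of 0.00384. Over all 11 alternatives its adjusted p ranged from 0.00384 to 0.951. No stretch of 90 bases in the last 500 bases of either transcript was shared with another gene, so reads from their 3′ ends can be told apart. The sum of the pair gave a log2 fold change of 0.44 ± 0.17 in whole sections (edgeR adjusted p = 0.0508) and of 1.42 ± 0.11 in the outer stripe (edgeR adjusted p = 9.24e-10).

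In the outer stripe both genes rose. Hspa1b went from 15.3 and 28.3 to 102 and 93.1 CPM (log2 fold change 1.85 ± 0.14 (SE), edgeR adjusted p = 3.42e-10), and Hspa1a from 21.6 and 26.7 to 64.4 and 53.1 CPM (log2 fold change 0.93 ± 0.11 (SE), edgeR adjusted p = 2.34e-07). Neither pair of ischemic values overlapped the normal values. In the cortex Hspa1b rose as well (log2 fold change 0.86 ± 0.18 (SE), edgeR adjusted p = 0.0014), while Hspa1a was at 19.8 and 25.5 against 19.7 and 22.5 CPM and did not pass (log2 fold change -0.29 ± 0.12 (SE), edgeR adjusted p = 0.0572). In the inner stripe Hspa1b rose from 25.4 and 64.5 to 114 and 106 CPM (log2 fold change 1.08 ± 0.27 (SE), edgeR adjusted p = 0.011), and Hspa1a, at 31.1 and 58.2 against 51.9 and 49.3 CPM, overlapped (log2 fold change -0.07 ± 0.20 (SE), edgeR adjusted p = 0.81). The log2 fold changes of the pair in the outer stripe were smaller than those of Cryab and Hspb1, a difference that was not tested, and the CPM of the pair there was below its own CPM in the normal inner medulla, at 199.6 and 192 for Hspa1a and 121 and 236 for Hspa1b. The 2 promoters were alike but for 1 base of the stretch shown. The outer stripe log2 fold changes were 1.85 for Hspa1b and 0.93 for Hspa1a, a difference that was not tested.

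Hspa8 (chr9:40800984-40810087, plus strand) encodes HSC70, the constitutive cytosolic HSP70, and Hsph1 (chr5:149614287-149636376, minus strand) and Dnajb1 (chr8:83608193-83612653, plus strand) encode an HSP110 exchange factor and an HSP40 that work with HSP70. None of these 3 genes passed the test in whole sections. Hspa8 was at 1742 and 1732 CPM in normal sections 1 and 2 and 2106 and 2029 CPM in ischemic sections 1 and 2, and although both ischemic values were the higher ones, the difference was no larger than that of the typical gene (log2 fold change -0.03 ± 0.18 (SE), edgeR adjusted p = 0.9). Hsph1 was at 89.3 and 95.4 CPM in the normal sections and 95.7 and 99.1 CPM in the ischemic sections (log2 fold change -0.20 ± 0.11 (SE), edgeR adjusted p = 0.143), and Dnajb1 at 54.3 and 61.3 CPM in the normal sections and 63.0 and 61.3 CPM in the ischemic sections (log2 fold change -0.17 ± 0.10 (SE), edgeR adjusted p = 0.16). With library size alone Hspa8 was called higher, at a log2 fold change of 0.25.

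In the outer stripe Dnajb1 rose from 48.1 and 53.6 to 85.2 and 79.2 CPM (log2 fold change 0.32 ± 0.09 (SE), edgeR adjusted p = 0.00442), whereas in the cortex it fell from 55.3 and 59.8 to 47.1 and 47.9 CPM (log2 fold change -0.48 ± 0.10 (SE), edgeR adjusted p = 0.000825). Hspa8 passed narrowly in the outer stripe, from 1581 and 1669.6 to 2674 and 2574 CPM (log2 fold change 0.32 ± 0.14 (SE), edgeR adjusted p = 0.0485), and it passed in 9 of 14 alternatives, with an adjusted p of 0.369 without ischemic section 1 and 0.286 without ischemic section 2. Dnajb1 did not pass there without ischemic section 1 (edgeR adjusted p = 0.0974). In the cortex Hspa8 was at 1970.1 and 1925 against 1833 and 1800.4 CPM (log2 fold change -0.31 ± 0.13 (SE), edgeR adjusted p = 0.0669). Hsph1, at 75.4 and 85.9 against 102 and 99.99 CPM in the outer stripe, did not pass there (log2 fold change -0.04 ± 0.09 (SE), edgeR adjusted p = 0.679). With library size alone it was called higher, at 0.32. In the longest annotated transcript of Hspa8, 24.6% of the 90-base windows of the last 500 bases also occur in Gm15459, Gm8355 or Snord14e. Snord14e is a small nucleolar RNA gene that lies within Hspa8. The counts of Hspa8 thus carry some uncertainty, as do those of Hspb1 with 7.06% of windows shared with a pseudogene.

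Hsp90aa1 (chr12:110690605-110702728, minus strand), the stress-responsive cytosolic HSP90 gene, rose in whole sections from 269 and 264 to 502 and 528 CPM (log2 fold change 0.67 ± 0.15 (SE), edgeR adjusted p = 0.0034). The pairs were tight, with means of 267 ± 3.54 and 515 ± 18.4 CPM (SD, n = 2 sections each). It was nearly even over the zones of the normal kidney, between 226 and 287 CPM, and after ischemia it was highest in the outer stripe, at 664 and 669 CPM (log2 fold change 0.99 ± 0.11 (SE), edgeR adjusted p = 1.85e-07). The cortex rose to 442 and 505 CPM (log2 fold change 0.53 ± 0.12 (SE), edgeR adjusted p = 0.00175). In CPM both ischemic sections were above both normal sections in each of the 5 zones, but not every zone passed the test. The inner stripe (log2 fold change 0.35 ± 0.21 (SE), edgeR adjusted p = 0.210) and the inner medulla (0.43 ± 0.22, edgeR adjusted p = 0.181) did not. The whole-section call was lost when either ischemic section was left out, with edgeR adjusted p values of 0.0608 and 0.0887 and a range of 1.20e-18 to 0.0887 over the 11 alternatives.

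Neither mitochondrial chaperonin gene was called higher in whole sections or in a zone by the main test, though Hspd1 was under some alternatives. Hspd1 (chr1:55077835-55088243, minus strand), the HSP60 subunit, and Hspe1 (chr1:55088132-55091307, plus strand), its HSP10 lid, are neighbours with overlapping 5′ ends on opposite strands, and over the 20 sums of section and zone their levels had a Pearson correlation of 0.905 on the log2(CPM + 1) scale, as a description of sums that share libraries and sections. In whole sections Hspd1 was at 287 and 288 CPM in normal sections 1 and 2 and 327 and 331 CPM in ischemic sections 1 and 2 and did not pass (log2 fold change -0.09 ± 0.14 (SE), edgeR adjusted p = 0.608). Hspe1 was at 928 and 967 CPM in the normal sections and 901 and 824 CPM in the ischemic sections and fell (log2 fold change -0.41 ± 0.16 (SE), edgeR adjusted p = 0.0459), but it passed in only 6 of 11 alternatives, with adjusted p values from 9.85e-09 to 0.519. Without ischemic section 1 the adjusted p was 0.342, without ischemic section 2 it was 0.519, and with library size alone 0.181. In the outer stripe Hspe1 fell by 0.39 ± 0.12 on the log2 scale (edgeR adjusted p = 0.0088) although its CPM overlapped between conditions, at 944 and 1033 against 999.8 and 944 CPM, so this fall is relative to the other genes of the zone, and with library size alone the log2 fold change was -0.02. It was lost without either ischemic section (adjusted p 0.154 and 0.252). Hspd1 was at 305 and 328 against 386 and 400.0 CPM in the outer stripe (log2 fold change -0.06 ± 0.11 (SE), edgeR adjusted p = 0.656) and was called higher, at 0.31, with library size alone. In the inner stripe Hspe1 fell in CPM as well, from 834 and 779 to 544 and 516 CPM (log2 fold change -0.94 ± 0.22 (SE), edgeR adjusted p = 0.00856), a call that was also lost without ischemic section 1 (adjusted p 0.210) or 2 (0.244). Hspd1 went from 261 and 231 to 196 and 212 CPM there, without passing (log2 fold change -0.61 ± 0.22 (SE), edgeR adjusted p = 0.0533).

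Outer stripe and cortex were then compared within sections. In the normal kidney Cryab alone of the 10 genes differed, at 7.80- and 7.32-fold the level of the cortex (log2 fold change 3.07 ± 0.18 (SE), edgeR adjusted p = 9.96e-11). The other 9 did not pass, where 12.9% higher and 10.4% lower of all genes were called (7.48% higher and 16.3% lower with library size alone). After ischemia 7 of 10 were higher in the outer stripe than in the cortex and none was lower, against 17.3% higher and 19.6% lower of all genes. Cryab stood at 14.8- and 14.3-fold the cortex (log2 fold change 3.83 ± 0.18 (SE), edgeR adjusted p = 1.59e-11), Hspb1 at 5.86- and 5.73-fold (log2 fold change 2.51 ± 0.28 (SE), edgeR adjusted p = 6.51e-07) and Hspa1a at 3.28- and 2.36-fold (log2 fold change 1.46 ± 0.14 (SE), edgeR adjusted p = 9.78e-08). Hspa1b (1.21 ± 0.12), Dnajb1 (0.76 ± 0.09), Hspa8 (0.50 ± 0.09) and Hsp90aa1 (0.47 ± 0.10) followed on the log2 scale, with edgeR adjusted p values of 1.51e-07, 7.68e-07, 0.000186 and 0.000811. Without ischemic section 1, Hspa8 (adjusted p 0.0727) and Hsp90aa1 (0.193) did not pass.

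The change of this outer stripe against cortex difference with ischemia was tested directly, and the same 7 genes passed, all upward, where 8.24% higher and 13.9% lower of all genes were called (14.1% higher and 8.75% lower with library size alone). The log2 change was 2.69 ± 0.39 (SE) for Hspb1 (edgeR adjusted p = 5.28e-05), 1.2 ± 0.20 for Hspa1a (0.000168), 0.96 ± 0.18 for Hspa1b (0.000623) and 0.79 ± 0.12 for Dnajb1 (8.01e-05). For Cryab it was 0.76 ± 0.24 (edgeR adjusted p = 0.0242), for Hspa8 0.61 ± 0.13 (0.00162) and for Hsp90aa1 0.45 ± 0.14 (0.024). Hsph1 (0.10 ± 0.17), Hspd1 (-0.16 ± 0.16) and Hspe1 (-0.19 ± 0.15) did not pass. Hspb1 passed under all 14 alternatives. Without ischemic section 1 only Hspb1 passed. Without ischemic section 2 Hspb1, Hspa1a, Hspa1b and Dnajb1 did, and without the section term Hspb1, Hspa1a and Dnajb1. The change for Cryab had adjusted p values of 0.186 and 0.144 without ischemic sections 1 and 2 and of 0.437 with zones from each spot alone, at a log2 change of 0.42.

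In the inner medulla of the normal kidney, 5 of the 10 genes were higher than in the cortex of the same sections and 4 were lower, against 19.8% higher and 20.4% lower of all genes (35.6% higher and 10.0% lower with library size alone). The normal spots called inner medulla lay a median of 1 step from the tissue edge in both sections. They also held the urothelial RNA given above, so these are levels of mixed tissue and not of papilla alone. Cryab was 46.1- and 42.8-fold the cortex in CPM (log2 fold change 5.09 ± 0.20 (SE), edgeR adjusted p = 1.26e-12). Hspa1a was 10.1- and 7.56-fold (log2 fold change 2.73 ± 0.15 (SE), edgeR adjusted p = 5.20e-11) and Hspa1b 8.69- and 8.64-fold (log2 fold change 2.73 ± 0.14 (SE), edgeR adjusted p = 3.86e-11). These 3 genes stood in the same direction in both sections with little spread. Hspb1 was 18.0- and 5.62-fold (log2 fold change 3.05 ± 0.30 (SE), edgeR adjusted p = 1.15e-07), with the normal sections well apart at 728 and 351 CPM, and Hsph1 was the fifth (log2 fold change 0.40 ± 0.14 (SE), edgeR adjusted p = 0.0245), lost without normal section 1 (adjusted p 0.480). Hspa8, both mitochondrial genes and Hsp90aa1 ran the other way, with log2 differences of -0.98 ± 0.09 for Hspa8, -0.65 ± 0.11 for Hsp90aa1, -1.3 ± 0.13 for Hspd1 and -1.44 ± 0.11 for Hspe1, all with edgeR adjusted p values of 5.82e-05 or less.

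Within the ischemic sections 4 of 10 were higher in the inner medulla than in the cortex and 5 lower, against 21.9% higher and 26.1% lower of all genes (42.3% higher and 15.4% lower with library size alone). Cryab was 3.88- and 2.69-fold the cortex (log2 fold change 1.31 ± 0.17 (SE), edgeR adjusted p = 2.07e-06) and Hspa1a 2.44- and 2.30-fold (log2 fold change 0.86 ± 0.17 (SE), edgeR adjusted p = 0.000248). Hspd1 and Hspe1 were again lower, at -1.38 ± 0.12 and -1.45 ± 0.11 on the log2 scale (edgeR adjusted p = 1.67e-08 and 1.87e-09). Dnajb1, which passed as lower (-0.27 ± 0.10, edgeR adjusted p = 0.0368), passed in only 4 of 14 alternatives, with adjusted p values up to 0.554, and stood at 0.11 with library size alone.

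Between conditions, 5 genes fell in the spots called inner medulla. Cryab went from 3751 and 3485 to 1545 and 1101 CPM (log2 fold change -1.68 ± 0.26 (SE), edgeR adjusted p = 0.00309), and Hspa1a from 199.6 and 192 to 47.9 and 51.9 CPM (log2 fold change -2.19 ± 0.22 (SE), edgeR adjusted p = 0.000649). In inner medulla spots with at least 2000 UMIs, the median of Cryab went from 1172 and 1515 to 953 and 769 CPM. Its 90th percentile went from 15436 and 12501 to 1955 and 1885 CPM, so the brightest spots differed most. Dnajb1, Hspa1b and Hsph1 fell by 1.0 ± 0.21, 0.89 ± 0.24 and 0.85 ± 0.25 on the log2 scale (edgeR adjusted p = 0.0104, 0.0263 and 0.0384). The papillary marker Akr1b3 and the urothelial list fell in the same spots, as given above, so a fall within papillary tissue and a smaller share of papillary tissue cannot be told apart. More generally, in spots that mix cells, fewer cells of a type and less RNA per cell cannot be told apart. With zones drawn from each spot alone, only Hspa1a still fell in the inner medulla, Cryab was at -0.20 (edgeR adjusted p = 0.591) and Hspb1 was called higher, at 0.97. Without ischemic section 1, and likewise without ischemic section 2, only Hspa1a and Cryab passed there.

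In the spots called pelvis, Hspa1a went from 122 and 129.7 to 52.5 and 57.9 CPM (log2 fold change -1.27 ± 0.20 (SE), edgeR adjusted p = 0.000683) and Hspa1b from 194 and 247 to 104 and 128 CPM (log2 fold change -1.01 ± 0.19 (SE), edgeR adjusted p = 0.00239). Both fell without overlap. Dnajb1 fell by 0.61 ± 0.21 on the log2 scale (edgeR adjusted p = 0.0459) and passed in 8 of 14 alternatives. Hsp90aa1 rose by 0.77 ± 0.18 (edgeR adjusted p = 0.00747). Without ischemic section 1 the adjusted p was 0.0735 for Hspa1b and 0.0676 for Hsp90aa1. Cryab, at 4046 and 2104 against 2497 and 1750.0 CPM, overlapped between conditions there, as did Hspb1 at 674 and 553 against 645 and 509 CPM, and neither passed (-0.64 ± 0.30 and -0.18 ± 0.21, edgeR adjusted p = 0.141 and 0.582).

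Spot by spot, the rise of Hspb1 was broad in the outer stripe. Each spot was thinned to 2000 UMIs so that depth was equal, which left out 48 to 150 shallower spots a section. The share of outer stripe spots with at least 1 Hspb1 count was 8.25% (6.44 to 10.4%) and 8.98% (7.08 to 11.2%) in the normal sections, with 95% Clopper-Pearson intervals that cover counting error only. In the ischemic sections it was 71.7% (68.0 to 75.2%) and 71.2% (67.6 to 74.5%). Unthinned, the 4 shares were 44.3%, 40.0%, 97.3% and 95.3%. In the cortex the thinned share was 10.2% (8.52 to 12.1%) and 11.9% (10.0 to 13.9%) in normal and 29.1% (26.2 to 32.2%) and 26.6% (23.7 to 29.7%) in ischemic sections. For Hspa1b the outer stripe shares were 4.5% (3.17 to 6.18%), 6.45% (4.84 to 8.39%), 17.6% (14.7 to 20.8%) and 14.1% (11.6 to 17.0%) in the same order of sections. The thinned share was higher in both ischemic sections than in both normal sections for 9 of the 10 genes, all but Hspe1. This is a description without TMM scaling, and the share of all genes that met the same rule was not counted. With library size alone, the median log2 fold change of all genes in this zone was 0.42. Hsph1 and Hspd1 are among the 9 but did not pass the main test there.

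In the ischemic outer stripe 3 of the genes varied together across spots. The Spearman correlation across thinned spots between Hspb1 and Cryab was 0.63 and 0.57 in ischemic sections 1 and 2 (632 and 687 spots), against 0.00 and -0.03 in the normal sections (800 and 791 spots), where Hspb1 averaged only 0.0900 and 0.0973 UMIs a spot and a relation could hardly show. Between Hspa8 and Cryab it was 0.49 and 0.47 against -0.08 and -0.13, and between Hspa8 and Hspb1 0.38 and 0.34 against -0.04 and -0.02. Hspa8 was well counted in all 4 sections, but Cryab was not: no normal spot had 10 or more Cryab UMIs and 302 spots in each normal section had none, so the normal values limit what could show here too. No other pair of the 10 genes reached 0.2 in the ischemic outer stripe. Hspa1a, Dnajb1, Hspa1b and Hsph1 were sparse there, at mean levels of 58.7, 82.2, 97.5 and 101 CPM against 996 CPM for Hspb1. A relation with these genes could hardly show, so their low values do not set them apart from Cryab, Hspb1 and Hspa8. Hspe1 (972 CPM), Hsp90aa1 (667 CPM) and Hspd1 (393 CPM) were better counted. The spots of a section share its library and tissue, and these correlations are descriptions.

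Spots of the outer stripe were also grouped by their thinned Cryab count. From spots with no Cryab UMI to those with 20 or more, mean Hspb1 went from 0.295 to 4.12 UMIs in ischemic section 1 and from 0.660 to 3.90 in ischemic section 2. Mean Hspa8 went from 3.64 to 8.16 and from 3.78 to 7.53 UMIs. Ischemic spots with no Cryab UMI (44 and 50 spots) thus held about as much Hspa8 as normal spots with none (302 in each section), which had 3.33 and 3.88 UMIs. At 1 to 4 Cryab UMIs, mean Hspa8 was 3.77 and 3.55 in the ischemic and 3.07 and 3.37 in the normal sections. At 5 to 9, with only 23 and 27 normal spots, it was 4.35 and 4.125 against 2.70 and 2.78. Hspe1 stayed between 1.54 and 2.45 UMIs over all classes of both ischemic sections. The kidney injury gene Havcr1 was at 4.09 and 3.74 UMIs in spots without Cryab and 4.99 and 5.05 in the highest class, and its correlation with Cryab was 0.13 and 0.16.

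**Figure D4:**
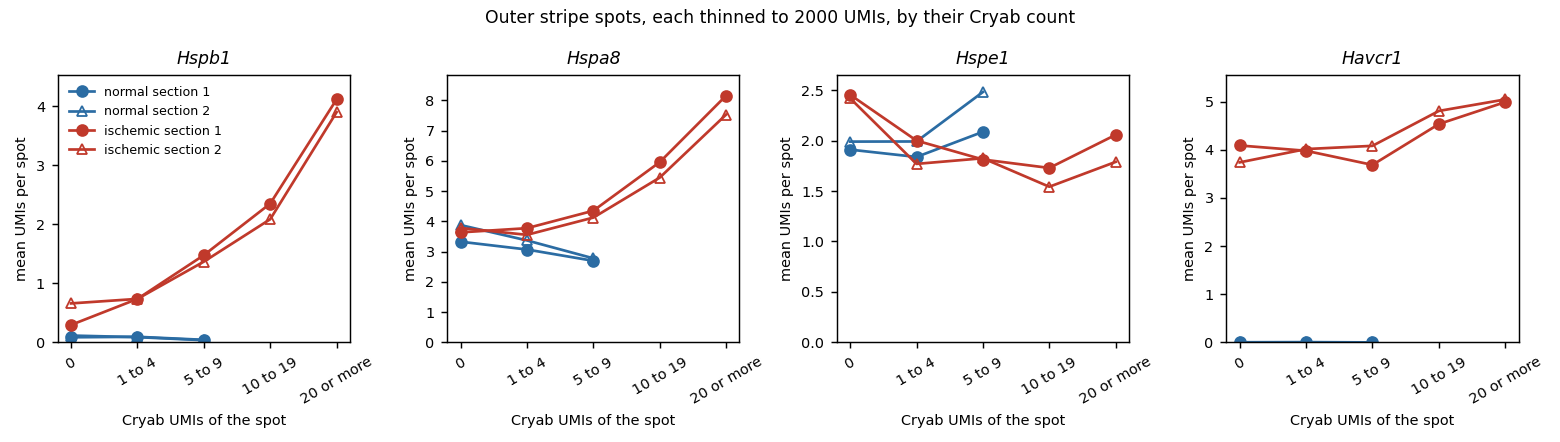
Mean UMIs of Hspb1, Hspa8, Hspe1 and Havcr1 in outer stripe spots thinned to 2000 UMIs, grouped by the Cryab count of the spot, with 1 line per section. In the ischemic sections Hspb1 and Hspa8 climb over the classes, to 4.12 and 3.90 and to 8.16 and 7.53 UMIs. Havcr1 ends at 4.99 and 5.05, and the normal sections have no spot with 10 or more Cryab UMIs.

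Genes of other cells moved with the condition too. The 6 neutrophil genes all rose in whole sections, and in the outer stripe their sum was 1.48 and 1.81 CPM in the normal and 327 and 336 CPM in the ischemic sections. The 4 smooth muscle genes, some of which are also switched on in other cells, summed to 38.6 and 55.7 CPM in the normal and 412 and 465 CPM in the ischemic sections in the outer stripe, where Acta2 (23.5 and 28.2 against 235 and 265 CPM) and Tagln (8.11 and 17.5 against 167 and 185 CPM) rose, while Myh11 (5.66 and 8.45 against 8.50 and 11.8 CPM) and Cnn1 (1.35 and 1.61 against 1.43 and 2.6 CPM) did not pass. Across thinned ischemic outer stripe spots, Cryab correlated with the neutrophil list at 0.29 and 0.21 and with the smooth muscle list at 0.24 and 0.22, and Hspb1 at 0.20 and 0.13 and 0.24 and 0.16. The 2 lists were counted less in this zone than Hspb1 (1023 and 970 CPM) and Hspa8 (2674 and 2574 CPM). Counting error lowers a correlation more where counts are sparse, so these values cannot be ranked against those of Cryab with Hspb1 and Hspa8. The part of these cells in the rises was not tested. The 6 macrophage genes summed to 152 and 211 CPM in the normal and 153 and 153 CPM in the ischemic sections (1 higher and 4 lower, or 1 higher and 1 lower with library size alone). The 4 blood genes fell (8874 and 9027 CPM in the normal and 763 and 1614 CPM in the ischemic sections), as did the 3 adipocyte genes (237 and 113 CPM in the normal and 0.708 and 0.693 CPM in the ischemic sections), and the 3 skeletal muscle genes were at or near 0, with a sum of at most 0.225 CPM.

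The rest of the chaperone network was read from 9 lists with 55 genes. These lists too were chosen with earlier results of these data known, so their counts beside all genes are descriptions. Hspb3 was listed at 0 in whole sections, and of the other 54 in whole sections 26 were higher, 11 lower and 17 not called, against 31.0% higher and 29.7% lower of all genes. With library size alone 33 were higher and 5 lower. In the outer stripe 31 of 52 were higher and 15 lower, against 34.6% higher and 32.9% lower of all genes. For heat shock factors, 2 of 4 were higher: Hsf1, the master regulator (9.16 and 14.3 against 20.9 and 21.2 CPM, 0.60 ± 0.13 on the log2 scale), and Hsf2 (3.64 and 4.05 against 5.99 and 7.90 CPM, 0.57 ± 0.18). Of the HSP70 and HSP110 relatives 4 of 6 were higher, led by Hspa4 (35.2 and 38.7 against 71.6 and 80.2 CPM, 0.76 ± 0.10) and Hspa14 (13.7 and 18.7 against 29.8 and 28.6 CPM, 0.60 ± 0.10), and none was lower. Among HSP90 and its cochaperones 5 of 9 were higher and 1 lower (7 higher and none lower with library size alone). The steroid receptor immunophilin Fkbp5 (25.8 and 31.6 against 69.4 and 68.7 CPM, 1.0 ± 0.09) and the cochaperone p23, Ptges3 (55.4 and 68.0 against 118 and 128 CPM, 0.72 ± 0.10), led the rises, and Fkbp4 was the fall (148 and 150.4 against 130.4 and 135 CPM, -0.44 ± 0.12).

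J-domain proteins, which hand clients to HSP70, were mixed, with 1 of 7 higher and 3 lower (3 higher and 2 lower with library size alone): Dnajc7 rose (30.7 and 33.1 against 53.8 and 54.5 CPM, 0.49 ± 0.10), and Dnaja1 (324 and 326 against 244 and 235 CPM, -0.72 ± 0.14) and Dnaja4 (20.9 and 23.5 against 18.4 and 17.0 CPM, -0.60 ± 0.10) fell most. Of the exchange factors with Hip and CHIP 3 of 6 were higher and none lower. Bag2, which releases nucleotide from HSP70, had the largest fold change of all 54 genes tested (16.8 and 19.2 against 85.7 and 72.4 CPM, 1.86 ± 0.12), followed in its list by Hspbp1 (20.2 and 25.3 against 39.7 and 39.4 CPM, 0.53 ± 0.09). Other small heat shock proteins split: Hspb6 (6.06 and 6.4 against 13.4 and 13.1 CPM, 0.81 ± 0.13) and Hspb8 (3.17 and 5.50 against 7.63 and 7.97 CPM, 0.62 ± 0.19) rose, and Hspb2 fell (19 and 22.1 against 14.6 and 13.4 CPM, -0.82 ± 0.10). Hspb2 is the head-to-head neighbour of Cryab on chromosome 9, and the 2 genes overlap over 1030 bases on opposite strands. The neighbours moved in opposite directions in whole sections.

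The cytosolic chaperonin TRiC, which folds actin and tubulin, moved together: 7 of 8 subunits were higher in whole sections and 8 of 8 in the outer stripe, led by Cct3 (73.3 and 82.8 against 175 and 184 CPM, 0.93 ± 0.11) and Cct8 (67.2 and 71.4 against 143 and 146 CPM, 0.79 ± 0.11). The mitochondrial chaperones and proteases went the other way, with 6 of 7 lower and none higher (2 of 7 lower with library size alone), among them the mitochondrial HSP90 Trap1 (205 and 202 against 108 and 109.8 CPM, -1.19 ± 0.13) and the protease subunit Clpx (96.2 and 97.3 against 60.5 and 59.9 CPM, -0.96 ± 0.12). In the endoplasmic reticulum, the collagen chaperone Serpinh1 (65.2 and 87.0 against 289.8 and 307 CPM, 1.71 ± 0.12) and BiP, Hspa5 (192 and 199.9 against 363 and 391 CPM, 0.67 ± 0.13), rose, and 1 of 3 was not called. The largest edgeR adjusted p among the genes named here was 0.0234. The median log2 fold change of the TRiC list was 0.72 and that of the mitochondrial list -0.46, against 0.04 for all genes. With library size alone these medians were 1.0 and -0.18, against 0.31.

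**Figure D5:**
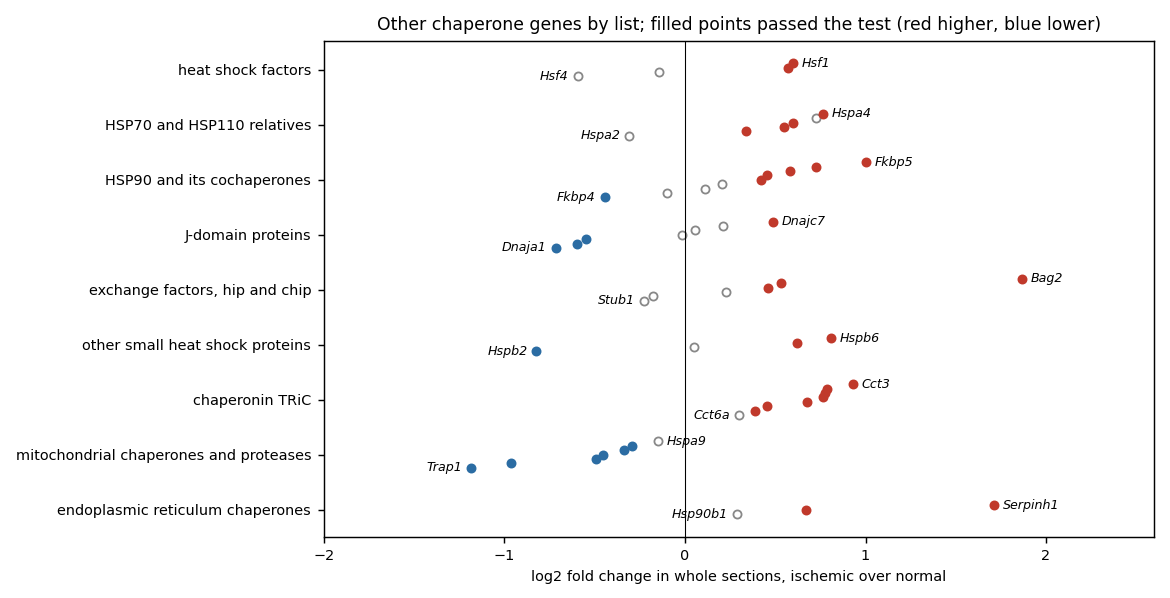
Log2 fold change in whole sections, ischemic over normal, of 54 other chaperone genes in 9 lists, 1 point per gene, with the lowest and highest gene of each list named. Filled points passed edgeR's test. Of the TRiC list 7 of 8 points are filled red, and of the mitochondrial list 6 of 7 are filled blue.

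Genes with the most similar pattern over the 20 sums of section and zone were found by Pearson correlation of log2(CPM + 1) among genes with a mean of at least 10 CPM. The sums share 4 libraries, and the correlations are descriptions. For Hspb1 they were Pdlim1 (0.967), S100a6 (0.967) and Snrpd2 (0.962), and for Cryab, at lower values, Ppp1r2 (0.878), Ccm2 (0.862) and Phlda3 (0.862). For Hspa1a they were S100a4 (0.93), Elob (0.927) and Plcd3 (0.922), for Hspa1b Btg2 (0.978), Plekhj1 (0.974) and Dbndd2 (0.972), for Hsph1 Fam110a (0.916), Ccdc80 (0.914) and Sncg (0.914) and for Dnajb1 Rgs10 (0.902), Rps10 (0.875) and S100a4 (0.872). For Hspa8 they were Tmem252 (0.93), Tuba4a (0.926) and Rnf11 (0.924), and for Hsp90aa1 Psmb4 (0.982), Txn1 (0.974) and Txnrd1 (0.968). The mitochondrial pair was followed by Tmem126a (0.93), Timm8a1 (0.923) and Snx7 (0.92) for Hspd1 and by Mrpl50 (0.968), Sfxn1 (0.959) and Eps8 (0.944) for Hspe1. Among the 10 genes themselves, Hspa1a was closest to Hsph1 (0.881), Dnajb1 (0.867) and Hspa1b (0.862), Hspb1 to Hspa1b (0.887) and Cryab (0.820), and Hspa8 to Hsp90aa1 (0.814), while Hspa1b and Hspe1 ran opposite (-0.788).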

How the data were processed

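Raw UMI counts per gene and spot of 4 Visium sections were used as deposited. Per the file headers the authors made them with Space Ranger 1.3.0, and the submitters' processing notes name mm10. The gene annotation behind them is not stated in what was read. The deposited counts were not normalized. Conditions came from the sample labels. The 10 genes, the gene lists and the zone markers were chosen with earlier results of these data known.

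Marker counts of a spot and its neighbours were taken as log2(CPM + 1), averaged per zone list and standardised within the section, and a spot took the zone with the highest score. Pelvis needed at least 10 counts of its list and a score in the top 5% of the section. Counts were added up over each section, and over each of its zones that had 20 spots or more, and tested by the quasi-likelihood method of edgeR 4.0.16 in R 4.3.3 after TMM scaling and filterByExpr, with p-values adjusted by Benjamini-Hochberg over all genes tested (threshold 0.05). Conditions were compared in whole sections and in 1 fit per zone, and zones within sections in 1 model with the section as a term. DESeq2 1.42.0 was an alternative. Others were RLE size factors, library size alone, no filter, no mitochondrial genes, other zone rules and each section left out. The replicate number was tried as a block, and whole sections without inner medulla and pelvis spots were added after the data were seen. The fits were tested on simulated data with known changes. With edgeR, 82 of 100 genes changed 2-fold were found in whole sections and 85 in the outer stripe. For outer stripe against cortex, 85 were found in normal sections and 64 for its change with ischemia. False calls in these 4 fits were 13, 6, 29 and 14. Of 100 genes changed 1.5-fold, 51, 50, 61 and 8 were found, so smaller changes were often missed. A standard error is the log2 fold change over the root of the quasi-likelihood F.

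Coordinates came from GENCODE vM21 (GRCm38, the mm10 assembly), in which 32235 of 32285 gene identifiers matched. The text names the 10 genes, Havcr1 and Lcn2, marker genes, from each list up to 2 rises and 2 falls with the largest change past the threshold and no overlap, and the 3 genes of most similar pattern for each of the 10. Python 3.11.15 and scipy 1.17.1 were used for thinning (seed 7) and correlations. Normal section 1 was the deepest, with a median of 16163 UMIs a spot against 8656 to 11851.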

Additional observations from a re-analysis of the deposited data

Results flagged for a closer look

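For 7 of the 10 genes the effect of ischemia differed between outer stripe and cortex by a test of the difference itself (edgeR, section as a term), with log2 differences of 2.69 for Hspb1, 1.2 for Hspa1a, 0.96 for Hspa1b, 0.79 for Dnajb1, 0.76 for Cryab, 0.61 for Hspa8 and 0.45 for Hsp90aa1. Of all genes, 8.24% were called higher and 13.9% lower in this test. Without the section term only Hspb1, Hspa1a and Dnajb1 passed, and the calls also depended on single sections, as given in the report. For 5 genes both ischemic sections lay above both normal sections in CPM of the outer stripe and below both in CPM of the inner medulla, where the log2 fold change was -2.19 for Hspa1a, -1.68 for Cryab, -1.0 for Dnajb1, -0.89 for Hspa1b and -0.85 for Hsph1. Hsph1 did not pass the main test in the outer stripe, where plain CPM of the typical gene also rose. The share of all genes that met this rule was not counted. The difference between outer stripe and inner medulla was not tested, and the marker genes of the inner medulla spots differed between conditions, as given in the report.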

How the results depend on the processing

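Across 11 to 14 alternatives per comparison, the calls of the 10 genes kept direction and side of the threshold in 1371 of 1510 cases, lost the threshold in 77, gained it in 55 and reversed in 7. With library size alone, Hspa8 in whole sections was at 0.25, Hsph1 and Hspd1 in the outer stripe at 0.32 and 0.31, and Dnajb1 in the ischemic inner medulla against cortex at 0.11 on the log2 scale, all against negative main values. In the inner medulla Hspb1 ranged from -0.88 to 0.58 with 1 section left out, the highest without normal section 1, and was at 0.97 with zones from the spot alone. Hspa1a was at 0.38 when inner medulla and pelvis spots were left out of whole sections, an alternative chosen after seeing the data. The causes were not tested.

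Numbers of genes called fell with DESeq2 from 3250 to 2074 in the inner medulla and from 2677 to 1455 in the pelvis, and without the section term from 3264 to 2147 for outer stripe against cortex in normal sections and from 3095 to 1760 for its change with ischemia. Of the 10 genes, library size alone called 5 in the inner stripe (3 in the main test) and 2 for outer stripe against cortex in normal sections (1 in the main test). Zones from the spot alone called 2 in the inner medulla (5) and 2 in that normal contrast, and leaving out the section term called 3 for the change with ischemia (7).

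With 1 section left out, the lone section was assumed to vary like the others. Genes called then ranged from 3081 to 7499 in the inner stripe, 1929 to 4320 in the inner medulla, 1413 to 2990 in the pelvis, 1688 to 6804 for outer stripe against cortex after ischemia, 3732 to 7494 for inner medulla against cortex after ischemia and 829 to 3869 for the change with ischemia. Of the 10 genes, 3 to 8 were called in whole sections, 4 to 8 in cortex, 5 to 8 in outer stripe, 2 to 7 in inner stripe, 2 to 8 in inner medulla, 1 to 6 in pelvis, 1 to 2 for the normal contrast and 1 to 7 for the change with ischemia.

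Sections share only a replicate number, with a correlation of 0.150 between the deviations of the sections numbered 1 over 15305 genes. With the number as a replicate block, 10089 genes were called in whole sections (9279 without it). Calls over all genes were 3130 in the pelvis (2677 without it), 7302 in the cortex (6738) and 9190 in the outer stripe (8992). Of the 10 genes, 8 were called in the pelvis (4 without it), 7 in the cortex (5 without it, with Hspa1a and Hspa8 called lower in addition) and 7 in the outer stripe (8 without it, with Hspa8 lost). Calls in whole sections, inner stripe and inner medulla were the same genes.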
